A study of Mus musculus with 6 samples.

Results

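Of 24034 genes in the deposited liver table, 10 were followed here by name as the genes of globins and heme synthesis: the adult alpha globins Hba-a1 and Hba-a2, the adult beta globins Hbb-bs and Hbb-bt, the erythroid heme enzyme Alas2, and the heme enzymes Alas1, Alad, Urod, Cpox and Fech. All 10 were found in the table, and all 10 passed the filter on low values (an average over all libraries of at least 0.5 FPKM). RNA sequencing was done on whole liver of C57BL/6 mice at 25 weeks of age. The HO group held 3 libraries with the genotype lncenc13A/3A. Both copies of Lncenc1, a gene for a long non-coding RNA, thus carried the allele 3A, and the design text of the series speaks of a knockout. The WT group held 3 libraries with the genotype lncenc1wt/wt. All 6 libraries thus shared the strain, the tissue and the age, and the sources used here do not say what the allele changes, whether animals were pooled or whether the livers were perfused. The genotypes come from the labels alone, as Lncenc1 RNA was not analysed here. No label says that the libraries of a group are separate animals, and the p-values therefore cover the variation among these libraries, which may be technical.

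Heme is an iron-containing ring made by a chain of enzymes that begins and ends in the mitochondrion. The first step joins glycine to succinyl-CoA and is done by 5-aminolevulinate synthase, which has a housekeeping form, Alas1, and a form of developing red cells, Alas2. Red cells put most of their heme into haemoglobin, a tetramer of alpha and beta globin chains, while hepatocytes put much of theirs into cytochrome P450 enzymes and let the level of Alas1 set the pace of synthesis. Whole liver also holds blood, and its globin RNA is commonly taken as coming from red cells and reticulocytes in that blood.

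The promoters of the globins and of Alas2 are shown because these genes are all known from developing red cells and yet had different profiles over the libraries. Each is the stretch of 250 bases before the RefSeq start site (build GRCm38.p6, which is mm10), 5′ to 3′ on the strand of the gene. Capitals mark every match, on either strand, to GATAA (the core letters bound by GATA factors), CACCC (the letters bound by KLF1, a red cell factor), CCAAT or TATAA.
Hba-a1, chr11:32283422-32283671, plus strand: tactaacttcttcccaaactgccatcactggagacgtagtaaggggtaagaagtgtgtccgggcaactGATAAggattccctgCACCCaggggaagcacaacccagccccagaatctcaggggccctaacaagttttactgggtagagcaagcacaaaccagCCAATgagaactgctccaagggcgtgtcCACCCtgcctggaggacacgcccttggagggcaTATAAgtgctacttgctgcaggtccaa
Hbb-bs, chr7:103827929-103828178, minus strand: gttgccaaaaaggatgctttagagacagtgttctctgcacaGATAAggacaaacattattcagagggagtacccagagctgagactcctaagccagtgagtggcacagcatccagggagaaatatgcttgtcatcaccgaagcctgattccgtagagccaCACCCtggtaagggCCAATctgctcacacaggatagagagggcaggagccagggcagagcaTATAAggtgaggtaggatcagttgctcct
Hbb-bt, chr7:103813924-103814173, minus strand: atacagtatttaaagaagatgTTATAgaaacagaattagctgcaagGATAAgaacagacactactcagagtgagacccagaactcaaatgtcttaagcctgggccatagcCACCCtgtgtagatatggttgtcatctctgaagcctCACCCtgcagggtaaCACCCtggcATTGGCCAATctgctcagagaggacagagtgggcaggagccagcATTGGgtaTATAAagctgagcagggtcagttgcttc
Alas2, chrX:150547167-150547416, plus strand: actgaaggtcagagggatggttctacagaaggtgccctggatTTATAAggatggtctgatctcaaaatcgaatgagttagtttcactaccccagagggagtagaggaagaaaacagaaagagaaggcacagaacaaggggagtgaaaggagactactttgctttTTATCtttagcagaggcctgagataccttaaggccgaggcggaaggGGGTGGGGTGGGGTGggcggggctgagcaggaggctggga
Each of the globin windows, Hba-a2 included, held a match to all of these. The Hba-a2 window shared an unbroken run of 247 bases with that of Hba-a1 and is not printed for that reason. The Alas2 window held GATAA once, CACCC 3 times in a row close to the start, and no CCAAT. Its matches to TATAA lay 208 and 207 bases before the start, on opposite strands, whereas that of Hba-a1 lay 27 bases and that of Hbb-bs 29 bases before it. In Hbb-bt 2 matches to CCAAT, on opposite strands, adjoin, and the TATAA matches of Alas2 overlap each other. In 32851 promoter windows of the same length, GATAA occurred in 22.6%, CACCC in 52%, CCAAT in 33.8% and TATAA in 22.8%. GATAA was also found before Cpox, and not in the windows of Alas1, Alad or Urod. A match to so few letters is a description of the sequence and does not show that a factor binds there.

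The libraries were close in depth and in summed FPKM, but fewer genes reached 1 FPKM in HO libraries. The spacing of low values gave relative depths of 19900000 to 24600000 read equivalents in HO and 19100000 to 23500000 in WT, and the FPKM values (fragments scaled for transcript length and library) summed to between 495570 and 518218 per library. At least 1 FPKM was reached by 11321 to 11471 genes in HO and by 11637 to 11667 genes in WT. The median FPKM over all genes was also lower in HO, at 0.742 to 0.788, against 0.853 to 0.879 in WT. The hepatocyte markers Alb, Ttr and Apoa1 were abundant in every library, with Alb at 25339 FPKM or above. Of the hepatocyte list, Cps1, the first enzyme of the urea cycle, was the one gene that passed the test and rose, with 638.7, 695.1 and 853.3 FPKM in HO and 358.5, 397.5 and 441.0 FPKM in WT (limma adjusted p = 0.0422). The median log2 change of all 13250 genes tested was -0.09, and scaling that removes this shift raises each change given below by about that much.

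Globin RNA was lower in HO livers than in WT livers for each of the adult globins, by 37% to 48% of the WT mean, but none of the 4 passed the test over all genes. Of the 10 members none did (limma with Benjamini-Hochberg adjustment at 0.05), against 1.14% of all genes tested. An unadjusted limma p under 0.05 was reached by 7 of 10 members, against 21.5% of all genes tested, and the HO and WT values did not overlap for 6 of 10, against 27.9%. Of those 6, 5 were lower in HO, against 21.4% of all genes, and 1 was higher, against 6.42%. The members were chosen with results of these data known, so these shares describe the members and test nothing about them.

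Hba-a1 (ENSMUSG00000069919, chromosome 11 from 32283511 to 32284465 on the plus strand) encodes the alpha chain. It had 112.0, 73.4 and 62.0 FPKM in HO replicates 1, 2 and 3, against 149.7, 139.4 and 154.7 FPKM in WT replicates 1, 2 and 3. The HO values lay below all WT values and were spread more widely, with replicate 1 nearest to WT. The log2 change was -0.88 ± 0.20 (SE, limma adjusted p = 0.0811), with a 95% interval of -1.36 to -0.40. With 3 libraries against 3, an exact two-sided permutation test cannot go below p = 0.1, the value reached by each of the 4 globins, by Alad and by Cpox.

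Hba-a2 (ENSMUSG00000069917, chromosome 11 from 32296489 to 32297298) lies near Hba-a1 and encodes the same chain. It had 118.0, 78.2 and 64.5 FPKM in the HO libraries, against 161.7, 152.1 and 177.2 FPKM in the WT libraries. The order of the HO libraries was that of Hba-a1. The log2 change was -0.95 ± 0.21 (SE, limma adjusted p = 0.0766). Of the 650 windows of 50 bases in the longest Hba-a1 transcript, 439 (67.5%) occur unchanged in Hba-a2. How the authors' counting shared such reads is not stated, so the split between the alpha globins is uncertain and their sum is the firmer value. That sum was 230.0, 151.6 and 126.5 FPKM in HO and 311.4, 291.5 and 331.9 FPKM in WT.

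Hbb-bs (ENSMUSG00000052305, chromosome 7 from 103826534 to 103828096 on the minus strand) is the major adult beta globin here and was the most abundant globin in every library. It had 211.2, 137.1 and 116.5 FPKM in HO, against 249.7, 253.7 and 231.5 FPKM in WT. HO replicate 1 came close to the lowest WT library, and the groups did not overlap. The log2 change was -0.70 ± 0.21 (SE, limma adjusted p = 0.120), the smallest of the 4 globins. Hbb-bt (ENSMUSG00000073940, chromosome 7 from 103812524 to 103813996 on the minus strand), the other adult beta globin, had 31.7, 21.7 and 17.6 FPKM in HO, against 50.2, 43.1 and 43.1 FPKM in WT. Its log2 change was -0.97 ± 0.20 (SE, limma adjusted p = 0.0747). The beta globins share 381 of 579 such windows (65.8%), so their split is uncertain too.

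The 4 globins kept close to one another across libraries. After each gene's log2 values were centred on their mean, the root mean square difference over the 6 libraries was 0.04 between the alpha globins and 0.15 between the beta globins, and at most 0.16 for any pair of globins. Summed over the 4 genes, globin RNA came to 472.9, 310.4 and 260.6 FPKM in HO, against 611.3, 588.3 and 606.5 FPKM in WT. The mean was 348.0 ± 111.0 FPKM in HO and 602.0 ± 12.2 FPKM in WT (SD, n = 3 each). The WT libraries lay within a narrow band and the HO libraries did not. Globins took 0.0526% to 0.0913% of the FPKM sum in HO and 0.116% to 0.122% in WT. Fewer red cells in the sample and less globin RNA per cell cannot be told apart in bulk RNA. The count of globins past the threshold depended on HO replicate 1: without it all 4 passed, with log2 changes of -1.13 for Hba-a1, -1.20 for Hba-a2, -0.95 for Hbb-bs and -1.19 for Hbb-bt (limma adjusted p between 0.0236 and 0.0304), when 203 of 13282 genes tested passed. Over all 17 alternative settings the adjusted p of the globins ranged from 0.0236 to 0.299.

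Within the globins the balance of chains also differed. The ratio of alpha to beta globin FPKM was 0.947, 0.954 and 0.944 in HO, against 1.04, 0.982 and 1.21 in WT, so the HO libraries were alike and below all WT libraries. Hbb-bt made up 13.05% to 13.7% of beta globin FPKM in HO and 14.5% to 16.8% in WT, without overlap. Hba-a1 made up 48.4% to 49.01% of alpha globin FPKM in HO and 46.6% to 48.1% in WT. These ratios were not tested, and the shares within each pair of near copies rest on the uncertain split of their reads. The alpha to beta ratio uses the sum of each pair, and none of the 650 windows of Hba-a1 occurs in Hbb-bs. Of the other globin genes on the list only Hbq1b, a theta globin, was measured, and it was listed at 0 in 5 libraries and at 0.123 FPKM in WT replicate 2.

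**Figure D1:**
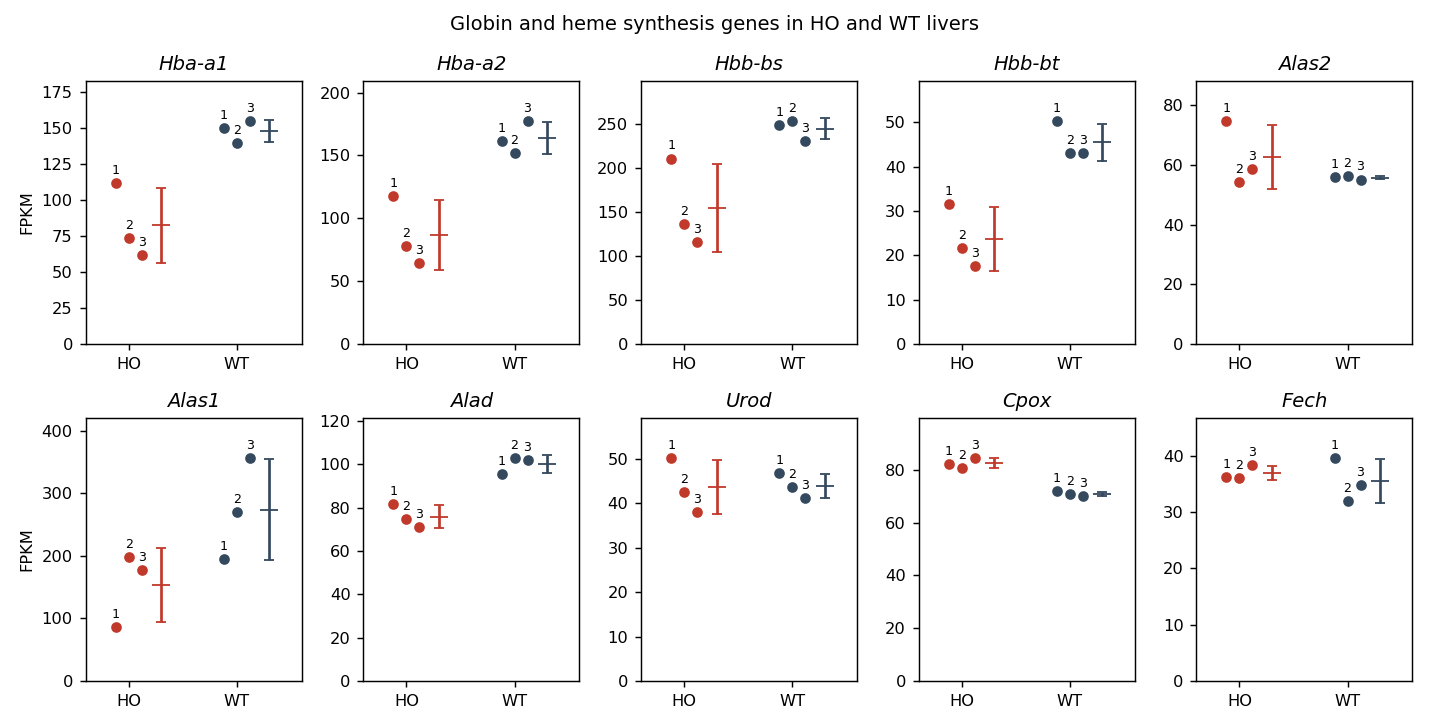
FPKM of the 10 genes in HO and WT liver libraries; each point is a library labelled with its replicate number, and the bar gives the mean and SD of 3 libraries. The 4 globins, Alad and Cpox show no overlap between the groups, while Alas2, Alas1, Urod and Fech overlap.

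Alas2 did not follow the globins. Alas2 (ENSMUSG00000025270, chromosome X from 150547375 to 150570638 on the plus strand) encodes the synthase of developing red cells. It had 74.6, 54.3 and 58.6 FPKM in HO, against 55.9, 56.1 and 55.1 FPKM in WT. HO replicate 1 was the highest library, HO replicate 2 the lowest, and the groups overlapped. Its log2 change of 0.15 ± 0.12 (SE, limma adjusted p = 0.519) had a 95% interval of -0.14 to 0.44, which lies above the point estimate of every globin. Over the 6 libraries its centred log2 values differed from those of the summed globins by a root mean square of 0.52, more than any pair of globins differed among themselves. By the same measure Alas2 differed by 0.13 from Urod, 0.14 from Cpox and 0.18 from Fech. Its difference was 0.29 from Alad and 0.77 from Alas1.

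Relative to globin RNA, Alas2 was therefore higher in HO. Its FPKM was 15.8%, 17.5% and 22.5% of the globin sum in HO, against 9.15%, 9.54% and 9.08% in WT. The ratio of the group means was 2.01, and each HO library lay above each WT library. No p is given, because the genes were chosen with results known. In these libraries Alas2 and globin RNA therefore did not stand in a fixed proportion. Which cells the Alas2 RNA came from was not tested. Alas2 overlaps the DNA repair gene Apex2, on the opposite strand, over 311 exonic bases. Apex2 had 7.80, 6.40 and 4.96 FPKM in HO, against 5.92, 5.85 and 6.29 FPKM in WT (log2 change 0.06 ± 0.16, limma adjusted p = 0.867). The library kit kept strand, but whether counting used it is not given, so some reads could belong to either gene.

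**Figure D2:**
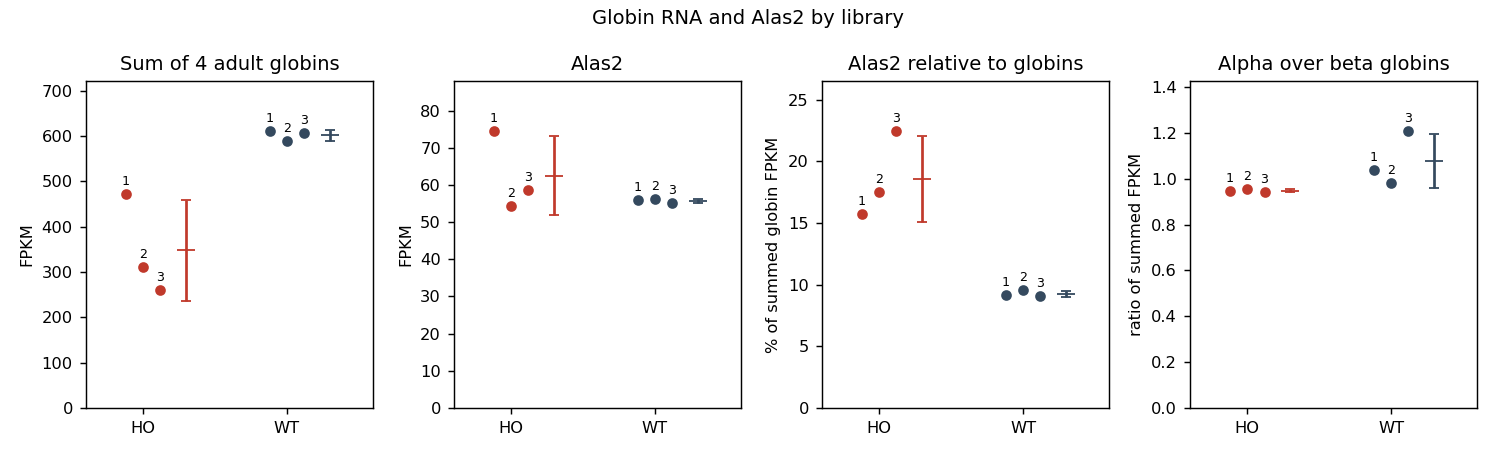
Summed adult globin FPKM, Alas2 FPKM, Alas2 as a percentage of the globin sum, and the ratio of alpha to beta globin FPKM, by library (points, labelled with replicate number) with the mean and SD of 3 libraries. Globins sum to 261 to 473 FPKM in HO and 588 to 611 FPKM in WT, and Alas2 makes up 15.8% to 22.5% of that sum in HO and 9.08% to 9.54% in WT.

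Other red cell genes were looked at to see what accompanied the globins. The list as used held 32 genes of red cells and reticulocytes, Alas2 among them. Of the 27 others in the table, 13 stayed under 1 FPKM in every library, and 4 were listed at 0 throughout: Epb42, a part of the red cell membrane skeleton, Rhd and Rhag, of the Rh complex, and Ermap. Slc4a1, the band 3 anion exchanger, lay close to 0, with 0, 0.027 and 0.019 FPKM in HO, against 0.115, 0.075 and 0.060 FPKM in WT. The summed level of the list, Alas2 included, was 193.2 to 208.2 FPKM in HO and 194.65 to 204.6 FPKM in WT. It overlapped between the groups, though most of that sum came from Alas2 and from genes that other cells also use.

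Of the 15 tested genes of the red cell list none passed the threshold over all genes. At an unadjusted limma p under 0.05, 5 were lower and 1 higher, while of all genes tested 16.5% were lower and 5.01% higher by that rule. Without overlap between the groups, 8 of the 15 were lower in HO and 1, Epb41, was higher. Of all genes tested, 21.4% were lower without overlap and 6.42% higher. The median log2 change was -0.23, against -0.09 over all genes. Gypc, the membrane protein glycophorin C, had 1.497, 1.42 and 1.46 FPKM in HO, against 3.57, 2.35 and 2.22 FPKM in WT (log2 change -0.69 ± 0.18, limma adjusted p = 0.0964). Prdx2, a peroxidase abundant in red cells, had 59.3, 55.7 and 52.7 FPKM in HO, against 67.9, 69.04 and 69.2 FPKM in WT (log2 change -0.30 ± 0.08, limma adjusted p = 0.103). Both were lower in every HO library than in any WT library, and Gypc did not share the spread of the globins within HO. Epb41, a membrane skeleton protein that other cells also use, had the largest log2 change of the tested list and lay the other way, at 24.9, 41.3 and 42.9 FPKM in HO, against 23.8, 23.6 and 14.4 FPKM in WT, without overlap (log2 change 0.80 ± 0.27, limma adjusted p = 0.153). It was chosen after its values were seen. Car2, carbonic anhydrase 2, had 1.93, 1.09 and 1.57 FPKM in HO, against 3.06, 2.57 and 2.27 FPKM in WT (limma adjusted p = 0.123).

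**Figure D3:**
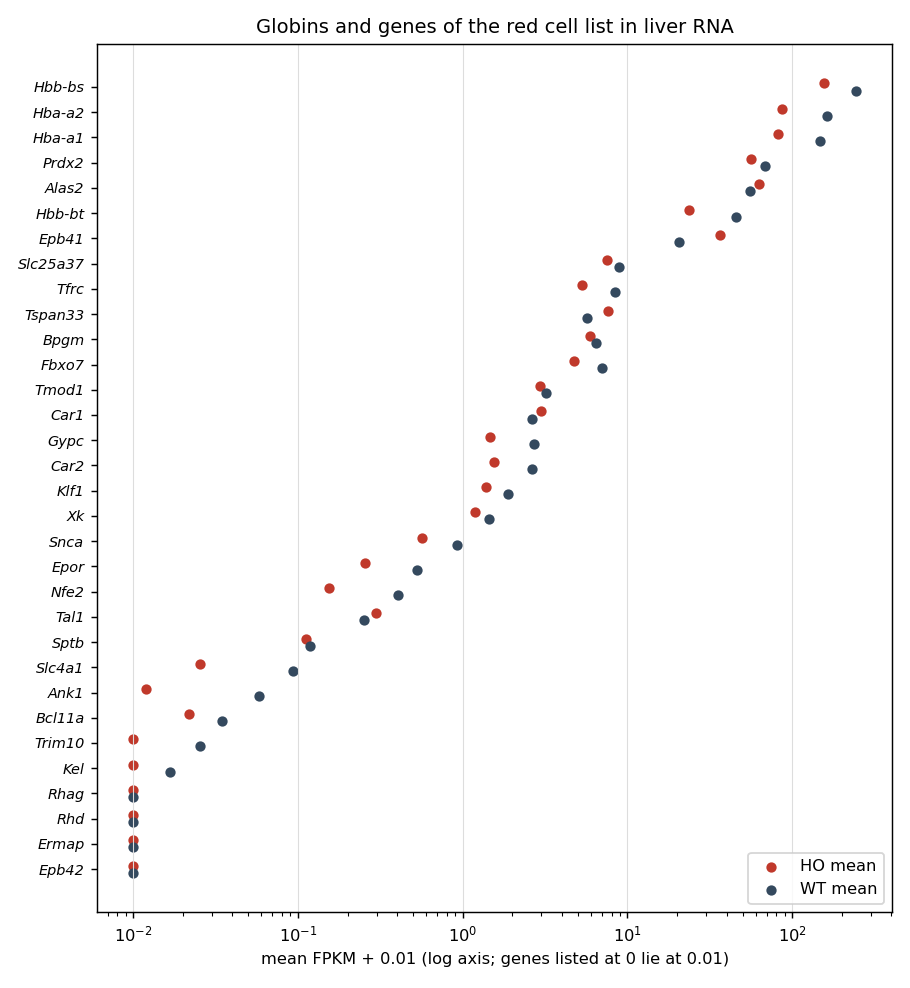
Mean FPKM of the 4 adult globins and the 28 genes of the red cell list found in the table, Alas2 included, in HO (upper point of each pair) and WT (lower point), on a log axis after adding 0.01. Hbb-bs, Hba-a1 and Hba-a2 stand at the top with Prdx2 and Alas2 next to them, and 4 membrane and blood group genes lie at the floor in both groups.

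Alas1 (ENSMUSG00000032786, chromosome 9 from 106233455 to 106248654 on the minus strand), the rate-setting synthase of the hepatocyte, was the most variable of the heme enzymes. It had 86.7, 197.9 and 177.0 FPKM in HO, against 194.4, 270.1 and 356.6 FPKM in WT. The means were 153.9 ± 59.1 FPKM in HO and 273.7 ± 81.2 FPKM in WT (SD, n = 3 each), and HO replicate 2 lay just above WT replicate 1. The log2 change was -0.87 ± 0.34 (SE, limma adjusted p = 0.205), as large as that of the globins but with a wider 95% interval, -1.68 to -0.06. HO replicate 1, which had the most globin RNA of its group, had the least Alas1. Without that library the log2 change was -0.50 (limma adjusted p = 0.271). The ratio of Alas1 to Alas2 FPKM was 1.16, 3.64 and 3.02 in HO, against 3.48, 4.81 and 6.48 in WT. An antisense gene, 4930500F10Rik, overlaps Alas1 over 465 exonic bases, and its reads could be mixed with those of Alas1. It had no value under that name in the deposited data.

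Alad (ENSMUSG00000028393, chromosome 4 from 62509169 to 62519918), which joins pairs of aminolevulinate molecules in the step after Alas1, had 81.4, 74.9 and 71.05 FPKM in HO, against 95.3, 102.9 and 102.0 FPKM in WT. The HO libraries lay below all WT libraries, with a mean 24% lower. In log2 terms the change was -0.40 ± 0.09 (SE, limma adjusted p = 0.0750), smaller than that of any globin. Cpox (ENSMUSG00000022742, chromosome 16 from 58670292 to 58717636), which oxidizes coproporphyrinogen, was the one member higher in HO without overlap. It had 82.2, 80.7 and 84.6 FPKM in HO, against 71.8, 70.7 and 70.1 FPKM in WT, with little spread in either group. The log2 difference was 0.22 ± 0.07 (SE, limma adjusted p = 0.151).

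Urod (ENSMUSG00000028684, chromosome 4 from 116989965 to 116994413), which removes carboxyl groups from uroporphyrinogen, had 50.3, 42.6 and 38.1 FPKM in HO, against 46.8, 43.7 and 41.3 FPKM in WT. Fech (ENSMUSG00000024588, chromosome 18 from 64452914 to 64490251), which inserts iron to complete heme, had 36.2, 36.0 and 38.3 FPKM in HO, against 39.6, 31.9 and 34.8 FPKM in WT. For both, the groups overlapped. The 95% intervals of the log2 change were -0.29 to 0.26 for Urod and -0.18 to 0.30 for Fech (limma adjusted p = 0.958 and 0.768). The sign of Urod turned from -0.02 to 0.10 with median-of-ratios scaling and to 0.085 with quantile normalization.

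The enzymes of the pathway had changes of either sign, and Alas1 lay apart from the others. The median log2 change was -0.92 over the 4 globins and -0.02 over the 5 enzymes other than Alas2, beside -0.09 over all genes tested. The mean log2 level of these 5 enzymes was 6.01 to 6.17 in HO and 6.25 to 6.37 in WT, lower without overlap. With Alas1 left out it overlapped, at 5.78 to 5.90 in HO and 5.83 to 5.91 in WT. These means were not tested. Among the enzymes the root mean square difference of centred log2 values was 0.11 between Cpox and Fech and 0.71 between Alas1 and Cpox. It was 0.16 between Urod and Fech and 0.18 between Urod and Cpox. Alad lay 0.22 to 0.32 from Urod, Cpox and Fech, and Alas1 at least 0.53 from each of the other enzymes.

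**Figure D4:**
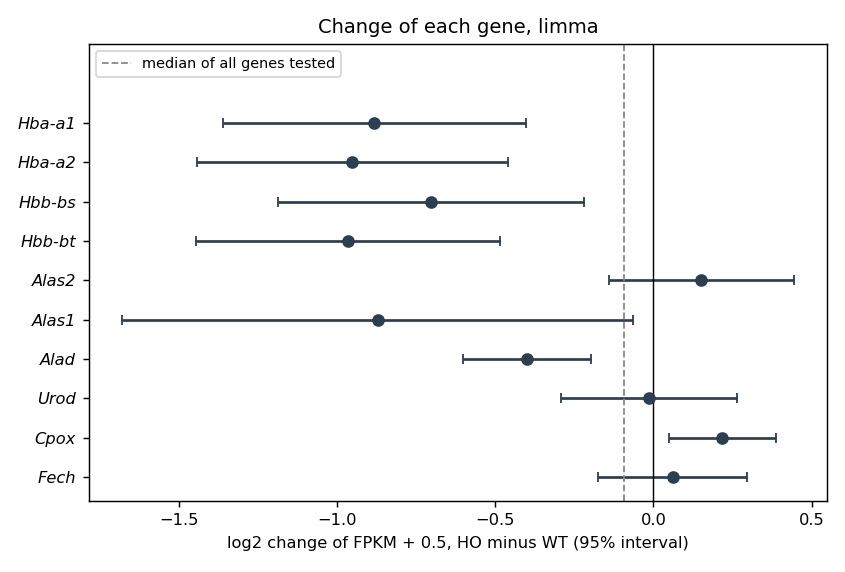
Log2 change of each of the 10 genes, HO minus WT, from limma, with 95% intervals; the dashed line is the median of all genes tested (-0.09). The 4 globins lie between -0.97 and -0.70, Alas2 at 0.15, Alas1 at -0.87 with the widest interval, and Cpox at 0.22.

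The other enzymes and carriers of heme synthesis were measured in all 13 cases, and none passed the threshold. At an unadjusted limma p under 0.05, 3 of the 13 were lower and none higher, against 16.5% lower and 5.01% higher of all genes tested, and the median log2 change was -0.12 beside -0.09 over all genes. Tmem14c, a mitochondrial membrane protein needed for heme synthesis in red cell precursors, had 92.5, 70.9 and 88.0 FPKM in HO, against 113.7, 108.2 and 106.3 FPKM in WT (limma adjusted p = 0.119). Pgrmc1, a heme-binding membrane protein, had 581.9, 540.0 and 539.1 FPKM in HO, against 756.0, 752.4 and 605.0 FPKM in WT (limma adjusted p = 0.148). Ppox, the enzyme between Cpox and Fech, had 8.71, 7.12 and 8.16 FPKM in HO, against 9.40, 9.68 and 10.35 FPKM in WT (limma adjusted p = 0.196). All 3 were lower in HO without overlap. Of the 13 genes, 4 in all were lower by that rule and 0 higher, against 21.4% and 6.42% of all genes tested. Ppox thus stood below WT beside its upstream neighbour Cpox, which stood above it.

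Of 14 genes that break down, bind or carry heme, none passed, with 3 higher and 3 lower at an unadjusted limma p under 0.05, against 5.01% higher and 16.5% lower of all genes tested. The median log2 change was -0.11. Blvrb, a biliverdin reductase that is also known from red cells, had 76.4, 70.9 and 64.6 FPKM in HO, against 112.9, 105.6 and 89.6 FPKM in WT (log2 change -0.53 ± 0.11, limma adjusted p = 0.0750). The carriers Slc48a1 and Slc46a1 of this list were also lower in HO without overlap. Of the 14 genes, 3 in all were lower by that rule and 2 higher, against 21.4% and 6.42% of all genes tested. Slc48a1 averaged 11.7 ± 1.81 FPKM in HO and 16.2 ± 0.546 FPKM in WT (SD, n = 3 each, limma adjusted p = 0.0994). Slc46a1 had 19.9, 17.9 and 18.0 FPKM in HO, against 21.5, 21.7 and 23.3 FPKM in WT (limma adjusted p = 0.170).

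The plasma proteins that bind free haemoglobin and heme had their highest values in 2 of the HO libraries. They and Hmox1 were chosen after their values were seen. Hp, haptoglobin, had 2743, 4857 and 4581 FPKM in HO, against 2746, 2343 and 3045 FPKM in WT (limma adjusted p = 0.228). Hpx, hemopexin, had 2421, 3630 and 3655 FPKM in HO, against 2251, 1906 and 2561 FPKM in WT (limma adjusted p = 0.186). HO replicate 1, the HO library with the most globin RNA, was within the range of WT for both. Haptoglobin and hemopexin are acute phase proteins, and whether that response bears on the globin level was not tested. Hmox1, the heme oxygenase that opens the ring, had 11.6, 10.5 and 10.9 FPKM in HO, within the WT range of 9.26 to 14.3 FPKM.

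A list of 13 genes held regulators of Alas1 and also Por, a gene of the P450 system. None of them passed over all genes. By an unadjusted limma p under 0.05, 2 were higher and 2 lower, against 5.01% higher and 16.5% lower of all genes tested. The median log2 change was -0.08, close to that of all genes. Nr1i3, the nuclear receptor CAR that switches on P450 genes together with Alas1, had 64.2, 71.1 and 60.2 FPKM in HO, against 91.4, 98.7 and 87.5 FPKM in WT (log2 change -0.50 ± 0.09, limma adjusted p = 0.0582). Por, the reductase that passes electrons to P450 enzymes, had 136.5, 172.0 and 208.3 FPKM in HO, against 78.3, 78.0 and 123.7 FPKM in WT (log2 change 0.89 ± 0.22, limma adjusted p = 0.0912). Ppargc1b had 2.52, 1.63 and 2.49 FPKM in HO, against 1.19, 1.27 and 1.34 FPKM in WT (limma adjusted p = 0.115). Nr1i3 was lower and Por and Ppargc1b higher in every HO library than in any WT library. Ppargc1a, chosen after its values were seen, was lower without overlap, at 1.08, 0.93 and 1.08 FPKM in HO, against 1.69, 1.63 and 1.20 FPKM in WT (limma adjusted p = 0.209). Of the 13 genes, 3 in all were lower without overlap and 2 higher, against 21.4% and 6.42% of all genes tested.

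**Figure D5:**
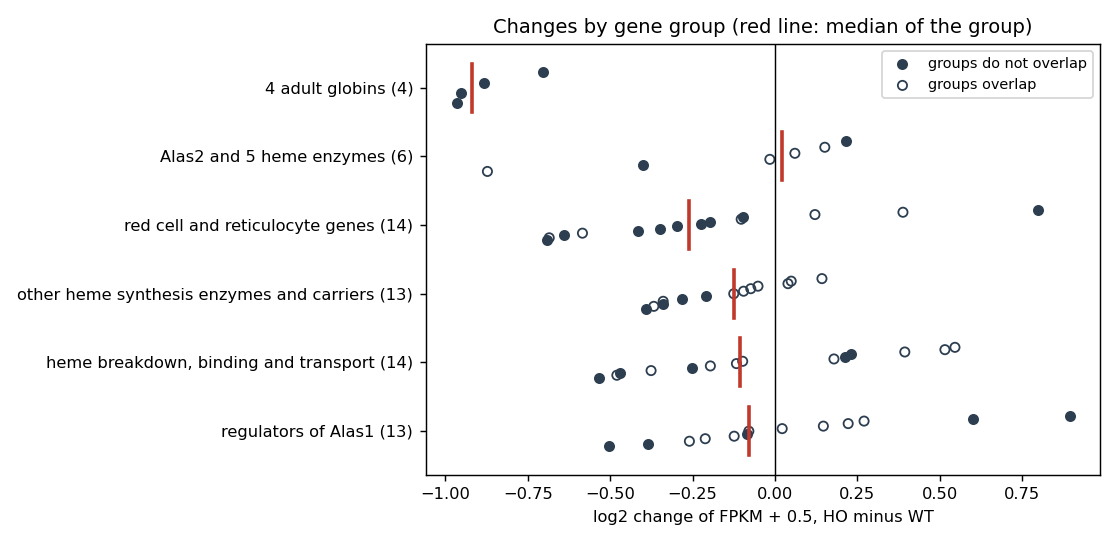
Log2 changes, HO minus WT, of the tested genes by group, with a red line at each group's median; filled points are genes whose HO and WT values do not overlap, and the 10 genes are left out of the last 4 groups. The globins lie together at a median of -0.92, whereas the medians of the other groups lie between -0.26 and 0.02.

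Genes with the profile closest to that of the globins were sought among 11560 other genes that averaged at least 1 FPKM, by the root mean square difference of centred log2 values over the 6 libraries. The nearest were Cryl1 (0.08), Gm47077 (0.10), Prdx1 (0.10), Syt3 (0.12) and Zfp385a (0.12). Prdx1, a peroxidase like Prdx2, had 287.1, 181.9 and 161.4 FPKM in HO, against 330.5, 316.8 and 306.8 FPKM in WT, and Cryl1, a crystallin-related dehydrogenase, had 7.63, 5.04 and 4.33 FPKM in HO, against 9.97, 10.3 and 9.05 FPKM in WT. Both had the pattern of the globins, with HO replicate 1 nearest to WT. None of the 5 is on the red cell list. The genes nearest to Alas1 were A930033H14Rik (0.13), AC102496.1 (0.22), Fen1 (0.24), 2310001K24Rik (0.26) and Slc25a25 (0.28), of which the first 4 had 2.47 FPKM or less in every library.

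Markers of other blood and liver cells were set beside the globins. Of 12 neutrophil genes, Camp and Ly6g were listed at 0 in every library, and their summed level was 3.58 to 8.72 FPKM in HO and 1.98 to 5.21 FPKM in WT. Of the 3 neutrophil genes that passed the filter on low values, S100a9 was higher in HO without overlap, as were 6.42% of all genes tested. It had 2.45, 3.28 and 3.75 FPKM in HO and 0.893, 0.491 and 1.75 FPKM in WT (limma adjusted p = 0.0828). S100a8 overlapped, at 0, 2.05 and 3.11 FPKM in HO and 0.840, 0.691 and 1.76 FPKM in WT (limma adjusted p = 0.943). Csf3r overlapped too (log2 change -0.07, limma adjusted p = 0.798). The 9 platelet genes in the table summed to 2.49 to 4.67 FPKM in HO and 4.65 to 5.31 FPKM in WT, and the 9 T and B cell genes to 1.06 to 1.91 FPKM in HO and 1.34 to 2.58 FPKM in WT. Kupffer cell genes, of the macrophages that clear old red cells, summed to 120.0 to 145.7 FPKM in HO and 133.6 to 229.6 FPKM in WT over 10 genes, with WT replicate 1 highest. Endothelial genes summed to 56.7 to 62.0 FPKM in HO and 61.0 to 77.4 FPKM in WT over 8 genes, and genes of cycling cells to 0.957 to 2.24 FPKM in HO and 1.78 to 2.93 FPKM in WT over 6 genes. The summed level of 8 stellate cell genes was lower in HO without overlap, at 63.1 to 84.8 FPKM in HO and 91.2 to 117.6 FPKM in WT. The sum of 9 hepatocyte genes, most of it Alb, was also lower without overlap, at 41593 to 45875 FPKM in HO and 46962 to 49563 FPKM in WT. Gene by gene the hepatocyte list was mixed, with a median log2 change of -0.02. Without overlap 2 of the 9 genes were lower in HO (Alb and Ttr) and 4 higher (Apoa1, Cps1, Hnf4a and Serpina1a). By that rule 21.4% of all genes tested were lower and 6.42% higher. The part of these cells in the globin difference was not tested.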

How the data were processed

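Liver RNA was made into directional Illumina libraries, per the labels' protocols. Values deposited by the authors are FPKM by gene. HISAT2, HTSeq, DESeq2, StringTie and mm10 are named in the submitters' processing notes, with no role for each, and the tool behind the FPKM values is not stated. Columns were matched to samples by group and replicate number in their names. Coordinates and exonic lengths came from GENCODE mouse release 21 (mm10), and promoter windows from RefSeq, which held 9 of the 10 members.

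FPKM is not a count. With 1 read set as the most frequent FPKM times exonic length, 28.4% to 29.9% of low values came out whole within 0.02 reads, too few to recover counts. By that step, 279 to 4586 read equivalents stood behind the globin values. The 13250 genes averaging at least 0.5 FPKM were fitted as log2(FPKM + 0.5) with limma 3.58.1 in R 4.3.3 (2 groups, eBayes with trend, two-sided, Benjamini-Hochberg adjustment over all genes tested), which understates the change of low genes. The fit was tested on simulated data. Members and lists were chosen with earlier results of these data known, and 2 genes of the red cell list are not reported here. The genes named are the members, those of each pathway list past the threshold with up to 3 others of smallest p, and the 5 genes nearest in profile to the globins and to Alas1. Python 3.11.15, numpy 2.4.6, pandas 2.3.3 and matplotlib 3.10.9 were used for tables and figures.

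Alternatives tried were leaving out each library, a replicate block, array weights (statmod 1.5.0), eBayes that was robust or had no trend, scaling by quantiles, by the median of ratios or to the FPKM sum without globins, a filter at 1 FPKM or none, and pseudocounts of 0.1 and 1.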

Additional observations from a re-analysis of the deposited data

How the results depend on the processing

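Of 10 members, 0 passed in the chosen fit, 5 with array weights (the 4 globins and Alad) and 4 without HO replicate 1 (the 4 globins). The count over all genes also rose, from 151 of 13250 tested in the chosen fit to 941 of 13250 with array weights. Without HO replicate 1 it was 203 of 13282. The cause was not tested. Under the other alternatives no member passed. With array weights the log2 changes were -0.996 for Hba-a1, -1.06 for Hba-a2, -0.86 for Hbb-bs, -1.10 for Hbb-bt and -0.43 for Alad (limma adjusted p = 0.0322, 0.0307, 0.0381, 0.0287 and 0.0343). When single libraries were left out, the number of members past the threshold ranged from 0 to 4, and log2 changes ranged from -1.13 to -0.70 for Hba-a1, -1.20 to -0.76 for Hba-a2, -0.95 to -0.52 for Hbb-bs, -1.19 to -0.78 for Hbb-bt, 0.02 to 0.24 for Alas2, -1.10 to -0.50 for Alas1, -0.45 to -0.36 for Alad, -0.12 to 0.077 for Urod, 0.20 to 0.23 for Cpox and -0.011 to 0.14 for Fech. Urod turned positive under quantile normalization (0.085), median-of-ratios scaling (0.097), without HO replicate 3 (0.077) and without WT replicate 1 (0.031), and Fech turned negative without WT replicate 2 (-0.011). The other members kept their sign in all 17 alternatives. The mean log2 ratio of the 5 enzymes was -0.20, and -0.089 with median-of-ratios scaling.

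The count over all genes, 151 (43 higher and 108 lower), was 100 with a pseudocount of 0.1, 40 with no filter, 77 without the trend, 941 with array weights and 25 with the replicate block. It ranged from 6 (without WT replicate 2) to 259 (without WT replicate 3) when single libraries were left out. Median-of-ratios scaling gave 70 higher and 64 lower, and quantile normalization 56 and 72. The replicate block changed no call among the members. Deviations of libraries with the same number correlated at 0.07, -0.03 and 0.01, so the numbers were not taken to pair the libraries, and not every library correlated best with its own number. Depth does not limit the members, the lowest of which had 279 read equivalents, but it limits the red cell genes near 0.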
